A study of Mus musculus with 12 samples.

Results

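The genes described here are 50 genes that a cell uses to copy its DNA and to divide, 24 for DNA replication (S phase) and 26 for mitosis. They were chosen by name, as a fixed list, and every peak that the authors had assigned to one of them was collected from the lists of H4K8ac peaks. H4K8ac is acetylation of lysine 8 of histone H4, a mark of active promoters, measured here by chromatin immunoprecipitation and sequencing (ChIP-seq). Of the 23433 genes assigned any peak in the 6 lists, 43 were among these 50, and 42 of them had a promoter peak in at least 1 library. A promoter peak is a peak that the authors' annotation places within 3000 bp of the transcription start site (TSS) of the gene.

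The cells were oligodendrocyte progenitor cells (OPCs), the glial cells that divide and give rise to myelin-forming oligodendrocytes. They were primary cells sorted from the forebrain of mice of the PdgfrαH2BEGFP genotype at postnatal day 5 (neonatal, 3 libraries) or 60 (adult, 3 libraries), so both ages carried the same green fluorescent nuclear reporter, read from Pdgfra, a gene active in OPCs, and no treatment is labelled. The 6 input libraries were not analysed here. The labels call the replicates biological, and do not say how many animals each holds. The lists were of unequal length, with 9097, 31189 and 7353 peaks in the 3 neonatal libraries and 72278, 72661 and 77002 in the 3 adult ones (in the order of replicates 1, 2 and 3, as below), and neonatal replicate 2 stood apart from the other neonatal libraries. The numbers of reads were not in the files used here, so the depth is unknown. Of 10 OPC markers, 8 to 10 had a promoter peak in every library, and of 10 microglial markers none in the neonatal libraries and 1 in each adult library. Of 10 astrocyte markers, 3, 8 and 2 had one in the neonatal and 6, 4 and 7 in the adult libraries. Of 10 neuronal markers, 0, 5 and 1 had one in the neonatal and 5, 3 and 3 in the adult libraries. The counts for 10 endothelial markers were 1, 2 and 0 in neonatal and 3, 3 and 3 in adult libraries.

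The adult lists also differed in the markers of another stage: of 10 markers of mature oligodendrocytes, a promoter peak was listed for 10 in each adult library and for 3, 4 and 1 in the neonatal libraries. The promoter peaks of these 10 markers summed to 66.0 to 104 kb in adult and 0.435 to 3.50 kb in neonatal libraries. Since the cells were measured in bulk, fewer cells carrying the mark and less mark per cell cannot be told apart, and the part of the mature oligodendrocyte signal in the differences between ages below was not tested.

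A cell that enters the cycle first loads the MCM helicase on its DNA, fires it with cyclin E and Cdk2, and copies the DNA with polymerases held by the PCNA clamp. It then builds a spindle, checks that each chromosome is attached, and separates the copies under the control of Cdk1, the Aurora and Polo kinases and the anaphase-promoting complex. Transcription of the replication genes is classically controlled by E2F factors through sites such as TTCCCGC or TTGGCGC, and that of mitosis genes by the DREAM and MuvB complexes through the cell cycle genes homology region (CHR, TTTGAA or TTCGAA), often near CCAAT boxes bound by NF-Y. In the neonatal brain OPCs cycle fast, and in the adult brain they still divide but more slowly.

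The promoter sequences of the 2 classes differed in these letters. RefSeq promoters (GRCm38.p6, 250 bases before to 50 after the start) were matched for 41 of the 50 genes, 20 for replication and 21 for mitosis, and were searched on both strands for the E2F-type letters, the CHR-type letters and CCAAT. When read on the opposite strand, the CCAAT box can share letters with the second E2F-type motif, and such matches counted for both. For 3 genes with more than 1 promoter the first was used. The E2F-type letters were found in 13 of 20 replication promoters (65%) and 4 of 21 mitosis promoters (19%), beside 8.90% of 17274 promoters of coding genes and 6.81% of all 32851 promoters of the table. The CHR-type letters were found in 3 replication promoters (15%) and 17 mitosis promoters (81.0%), beside 17.7% of coding and 19.2% of all promoters. All 17 of these mitosis promoters also held CCAAT, a pair found together in 3 replication promoters and 7.50% of coding promoters. CCAAT itself was in 70% of replication, 90.5% of mitosis, 39.4% of coding and 37.4% of all promoters, and 14 mitosis promoters (66.7%) held 2 or more, beside 13.6% of coding promoters. These letters are a description of the sequence and not a measurement of binding.

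The 200 bases before the start of 7 genes are shown because they span the range of the peak data given below: Mcm5 and Rrm1 with peaks on both sides of the start in adult cells, Pola1 with few, Kif11 with peaks on the upstream side, Cdk1 and Top2a with small peaks in some libraries, and Ccnb2 with no peak. Each is written 5′ to 3′ on the strand of the gene, in GRCm38, with the letters of any of the 3 motifs, on either strand, in capitals.
Mcm5, chr8:75109309-75109508, plus strand: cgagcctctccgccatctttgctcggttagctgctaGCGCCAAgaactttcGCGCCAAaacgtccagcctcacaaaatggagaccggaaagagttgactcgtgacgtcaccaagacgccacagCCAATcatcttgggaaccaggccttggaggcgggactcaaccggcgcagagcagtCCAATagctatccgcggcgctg
Rrm1, chr7:102441495-102441694, plus strand: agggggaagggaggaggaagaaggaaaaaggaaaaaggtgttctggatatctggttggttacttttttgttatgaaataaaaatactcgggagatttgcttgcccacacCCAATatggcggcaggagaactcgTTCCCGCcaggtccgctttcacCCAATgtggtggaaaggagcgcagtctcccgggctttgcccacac
Pola1, chrX:93632156-93632355, minus strand: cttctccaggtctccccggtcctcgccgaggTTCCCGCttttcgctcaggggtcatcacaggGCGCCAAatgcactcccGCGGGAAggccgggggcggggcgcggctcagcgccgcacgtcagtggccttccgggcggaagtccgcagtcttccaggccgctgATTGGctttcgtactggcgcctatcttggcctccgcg
Kif11, chr19:37376182-37376381, plus strand: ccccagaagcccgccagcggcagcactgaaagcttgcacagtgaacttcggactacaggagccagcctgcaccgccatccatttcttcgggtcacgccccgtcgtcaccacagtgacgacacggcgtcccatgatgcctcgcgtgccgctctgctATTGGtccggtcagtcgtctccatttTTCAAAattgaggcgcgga
Cdk1, chr10:69352913-69353112, minus strand: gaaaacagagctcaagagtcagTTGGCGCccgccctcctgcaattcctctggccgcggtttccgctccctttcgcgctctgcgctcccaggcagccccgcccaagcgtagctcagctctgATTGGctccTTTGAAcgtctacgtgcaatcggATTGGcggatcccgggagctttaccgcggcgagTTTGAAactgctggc
Top2a, chr11:99024190-99024389, minus strand: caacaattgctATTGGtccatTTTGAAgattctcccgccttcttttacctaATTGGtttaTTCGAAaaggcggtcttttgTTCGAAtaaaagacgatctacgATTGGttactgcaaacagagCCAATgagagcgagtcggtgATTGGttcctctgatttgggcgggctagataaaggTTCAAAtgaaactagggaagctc
Ccnb2, chr9:70421555-70421754, minus strand: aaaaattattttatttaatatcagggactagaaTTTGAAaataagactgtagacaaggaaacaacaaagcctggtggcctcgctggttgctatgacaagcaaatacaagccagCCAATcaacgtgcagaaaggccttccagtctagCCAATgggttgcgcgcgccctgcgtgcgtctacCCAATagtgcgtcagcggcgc
In the full windows Pola1 had 4 E2F-type matches and no CHR-type match, and Top2a had 4 CHR-type matches, 6 CCAAT boxes and no E2F-type match. Ccnb2, with no H4K8ac peak in any library, had 2 CHR-type matches and 3 CCAAT boxes, so the letters were present in promoters with and without peaks.

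More of the 50 genes had a promoter peak in adult than in neonatal lists. A promoter peak was listed for 2, 25 and 3 of the 50 genes in the neonatal libraries and for 39, 32 and 36 in the adult libraries, means of 10 ± 13 and 35.7 ± 3.51 (SD, n = 3 each). Neonatal replicate 2 held most of the neonatal peaks, but the groups did not overlap. The same shares over 21631 coding genes were 26.4%, 53.3% and 23.5% in the neonatal and 56.3%, 54.4% and 55.2% in the adult libraries. The shares of the 50 genes were 4%, 50% and 6% in the neonatal and 78%, 64% and 72% in the adult libraries, below those of coding genes in each neonatal library and above them in each adult library, with no test made of that difference. The comparison depends on the genes counted. Only 14232 of the 21631 coding genes were found in any list, against 43 of the 50 genes, and the rest count as without a peak.

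**Figure D1:**
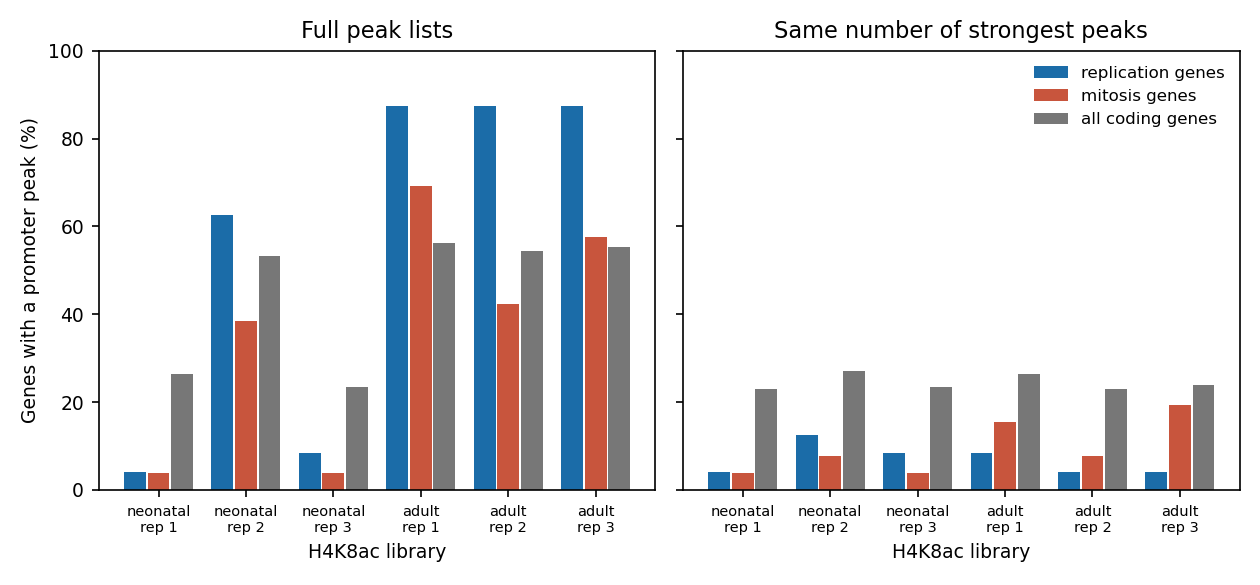
Bars give the percent of the 24 replication genes, the 26 mitosis genes and all coding genes with a promoter peak in each of the 6 libraries, with the full lists and with the same number of strongest peaks from each list. In the full lists the replication bars stand at 87.5% in every adult library, above the mitosis bars at 42.3% to 69.2%, while with equal numbers of peaks all member bars stay below the coding bars near 24.5%.

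This difference between ages was small at equal list length. When the 7353 strongest peaks of each list were used, as many as the shortest list holds, a promoter peak remained for 2, 5 and 3 of the 50 genes in neonatal and 6, 3 and 6 in adult libraries, means of 3.33 ± 1.53 and 5 ± 1.73 (SD, n = 3 each), so the groups overlapped. The coding genes then stood at 24.6% and 24.5%, against 6.67% and 10% of the 50 genes. At equal list length the share of the cell cycle genes lay below that of the coding genes in every library.

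By the best peak of each gene, most cell cycle genes lay below the median gene in the adult libraries and neonatal replicate 2. Single member peaks ranged widely, from the 0.577 (Cdc20) to the 96.5 percentile (Foxm1) of promoter peaks by fold in adult replicate 1. The best peak of a gene had a median fold enrichment, as the authors' peak caller gave it, of 5.78, 5.36 and 6.11 over the members with a peak in adult replicates 1, 2 and 3, against 9.04, 7.50 and 7.88 over all genes with a promoter peak in the same library. It lay under the median of all genes for 33 of 39, 24 of 32 and 27 of 36 members in the adult libraries, and for 20 of 25 in neonatal replicate 2. The median width of the replication genes' peaks was 320, 322 and 478 bp in the adult libraries, under the 469, 469 and 590 bp of all promoter peaks. That of the mitosis genes' peaks was 326, 668 and 599.5 bp, under the median of all promoter peaks in adult replicate 1 and over it in adult replicates 2 and 3. Mcm7, which carries the miR-106b cluster in an intron, had the strongest member peak in adult replicates 2 and 3 (fold 13.1, 12.8 and 12.6 in the 3 adult libraries). Foxm1 had the strongest in adult replicate 1, with fold 20.6, but fold 6.46 in adult replicate 3 and no assigned peak in adult replicate 2.

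By gene, the length covered by promoter peaks was higher in every adult than in every neonatal library for 24 of the 50 genes (48%). The same pattern was found for 41.9% of the 21631 coding genes and 60.1% of the 18548 genes with a promoter peak in any library. For none of the 50 was every neonatal library above every adult one, a pattern found for 0.208% of coding genes. The 48% lies near the background, and the count is no result particular to these genes. For a single gene the exact two-sided permutation test over 3 and 3 libraries gives 0.1 at the smallest, which each of the 24 genes reached, so no gene could pass 0.05. Without neonatal replicate 2 the count was 30, beside 50.4% of coding genes, and with lists of equal length it was 3 (Mcm7, Aurka and Ttk), beside 15.2% of coding genes.

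**Figure D2:**
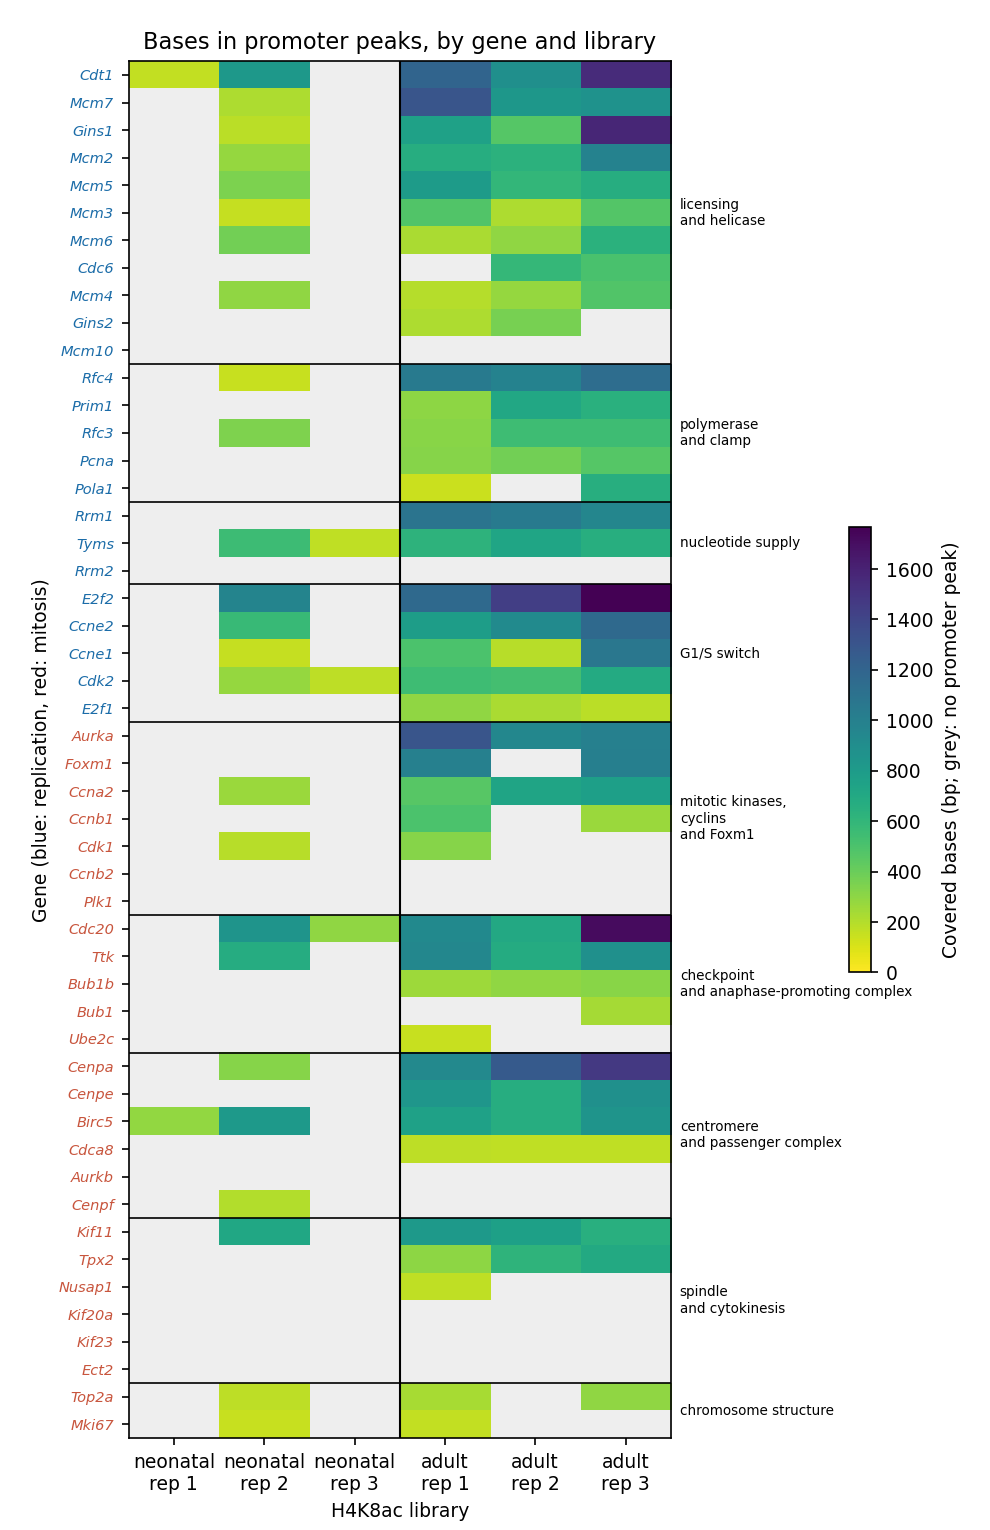
The map gives the covered length of promoter peaks in bp for each of the 50 genes (rows, grouped by role) in each of the 6 libraries (columns), with grey for no promoter peak. Neonatal replicates 1 and 3 are nearly all grey, neonatal replicate 2 is filled for 25 genes, and the adult libraries are filled for 32 to 39.

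Among the 11 genes that license and unwind DNA, 6 had every adult above every neonatal library, namely Mcm2, Mcm3, Mcm5, Mcm7, Cdt1 and Gins1. Mcm7, a subunit of the MCM helicase, covered 0, 214 and 0 bp in the neonatal and 1300, 833 and 869 bp in the adult libraries. That was a mean of 71.3 ± 124 against 1001 ± 260 bp (SD, n = 3 each; exact permutation p = 0.1), the largest difference of these 11 genes, with no overlap between ages. Its rank depends on assignment. A peak of 456 bp upstream of Mcm7 counted for it in adult replicate 1. Peaks at that place in neonatal replicate 2 and adult replicates 2 and 3 were assigned to Ap4m1. Counted by position, Mcm7 had 0, 788 and 0 bp in neonatal and 1300, 1308 and 1396 bp in adult libraries. Mcm5, whose promoter is printed above, covered 0, 346 and 0 bp in neonatal and 799, 596 and 669 bp in adult libraries. Cdt1, which loads the helicase, was the only one of these 11 genes with a promoter peak in neonatal replicate 1, at 163, 828 and 0 bp in neonatal and 1197, 890 and 1547 bp in adult libraries. Mcm4 and Mcm6 overlapped between ages because of neonatal replicate 2. Mcm6 had 0, 377 and 0 bp in neonatal and 226, 291 and 636 bp in adult libraries. Peaks beside the Mcm4 start were assigned to Prkdc. Counted by position, Mcm4 had 0, 704 and 0 bp in neonatal and 782, 810 and 1357 bp in adult libraries, without overlap. Cdc6, which acts with Cdt1 in loading, had no neonatal peak and 0, 589 and 508 bp in the adult libraries. Gins2, of the GINS complex, had no neonatal peak and 217, 362 and 0 bp in the adult libraries. Adult peaks beside its start were assigned to Gm10614, and by position Gins2 had 595, 721 and 670 bp in the adult libraries. Mcm10, a helicase-associated factor, had no peak of any class in any library.

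Of the 5 genes of the polymerase and its clamp, Rfc4, Prim1 and Pcna had every adult above every neonatal library. Rfc4, a subunit of the clamp loader, covered 0, 150 and 0 bp in neonatal and 1041, 984 and 1135 bp in adult libraries, means of 50 ± 86.6 and 1053 ± 76.3 (SD, n = 3 each; exact permutation p = 0.1). Peaks beside its start in neonatal replicates 1 and 2 were assigned to 6330408M09Rik. Counting every peak within 3000 bp of the Rfc4 start gave 297, 693 and 0 bp in the neonatal libraries and the same adult values. Pcna, the sliding clamp itself, had no neonatal peak and 322, 375 and 465 bp in the adult libraries. Prim1, the primase subunit that makes the RNA primer, likewise had no neonatal peak and 302, 710 and 642 bp in the adult libraries. Pola1, the catalytic subunit of polymerase alpha, had the smallest difference of the 5: no neonatal peak, and 141, 0 and 662 bp in adult replicates 1, 2 and 3.

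Nucleotide supply held opposite cases in 1 enzyme. Rrm1, the large subunit of ribonucleotide reductase, had no neonatal peak and 1090, 1040 and 953 bp in the adult libraries (mean 1028 ± 69.3, SD, n = 3; exact permutation p = 0.1), while Rrm2, the small subunit, had no peak of any class in any library. Tyms, which makes thymidylate, covered 0, 559 and 170 bp in neonatal and 626, 727 and 656 bp in adult libraries. All 5 genes of the G1/S switch (Ccne1, Ccne2, Cdk2, E2f1 and E2f2) had every adult above every neonatal library. E2f2, an activator E2F, covered 0, 968 and 0 bp in neonatal and 1161, 1440 and 1767 bp in adult libraries, in peaks around 2 annotated starts. E2f1, of the same class, had no neonatal peak and 296, 225 and 184 bp in the adult libraries, the smallest difference of these 5 genes.

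The mitosis genes were more mixed. Of the 7 kinases, cyclins and Foxm1, 2 had every adult above every neonatal library, Ccna2 and Aurka. Aurka, a kinase of the spindle poles, had no neonatal promoter peak and 1301, 949 and 996 bp in the adult libraries, a mean of 1082 ± 191 (SD, n = 3; exact permutation p = 0.1). Its start lies close to that of Cstf1 on the opposite strand, and a peak of neonatal replicate 2 at chr2:172370673-172371289, with fold 11.3, was assigned to Cstf1. Cdk1, the kinase that drives entry to mitosis, covered 0, 193 and 0 bp in neonatal and 318, 0 and 0 bp in adult libraries, so the ages overlapped. Foxm1, a transcription factor of mitotic genes, had no neonatal peak of its own and 996, 0 and 1006 bp in the adult libraries. The peaks beside its start in all neonatal libraries and in adult replicate 2 were assigned to Rhno1, which starts beside it. Ccnb1, the B1 cyclin, had no neonatal peak and 502, 0 and 266 bp in the adult libraries. Ccnb2, the B2 cyclin, and Plk1, the Polo kinase, had no promoter peak in any library.

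In the spindle checkpoint and anaphase-promoting complex, Bub1b and Ttk of 5 genes had every adult above every neonatal library. Cdc20, the activator of the complex, had the largest difference of the 5, with 0, 850 and 290 bp in neonatal and 928, 704 and 1714 bp in adult libraries. Adult replicate 2 lay below neonatal replicate 2, so the groups overlapped (means 380 ± 432 and 1115 ± 530, SD, n = 3 each). Ube2c, the ubiquitin-conjugating enzyme of the complex, had 1 peak of 146 bp, in adult replicate 1. Bub1, a checkpoint kinase, also had 1 peak, of 240 bp in adult replicate 3. Bub1b, a checkpoint protein, had no neonatal peak and 261, 293 and 311 bp in the adult libraries.

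Of the 6 genes of the centromere and the chromosomal passenger complex, Cenpa, Cenpe and Cdca8 had every adult above every neonatal library. Cenpa, the histone H3 variant of centromeres, covered 0, 318 and 0 bp in neonatal and 934, 1268 and 1471 bp in adult libraries, the largest difference of these 6 genes (means 106 ± 184 and 1224 ± 271, SD, n = 3 each; exact permutation p = 0.1). Cenpe, a kinetochore motor, had no neonatal peak and 839, 664 and 878 bp in the adult libraries. Cdca8 (borealin, of the passenger complex) had no neonatal peak and the narrow values 174, 171 and 169 bp in the adult libraries. Adult peaks beside its start were assigned to 9930104L06Rik, and by position it covered 638, 451 and 697 bp there. Cenpf was the only one of the 50 genes with a higher neonatal mean of promoter peaks, from 206 bp in neonatal replicate 2 and no promoter peak in any other library. That peak, at chr1:189646663-189646868, lay inside the gene, near an internal annotated start. All 3 adult libraries had Cenpf peaks classed as intronic. Peaks of any class covered 0, 728 and 0 bp in neonatal and 830, 155 and 1390 bp in adult libraries, so the higher neonatal mean holds for the promoter class only. Birc5 (survivin) had peaks in neonatal replicates 1 and 2, at 287 and 814 bp, and 755, 668 and 849 bp in the adult libraries. Aurkb, the kinase of the passenger complex, had no promoter peak. It had 1, 2 and 2 peaks in adult replicates 1, 2 and 3, classed as distal intergenic, at 3915 to 4823 bp before its start.

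The list of spindle and cytokinesis genes held the most genes without a peak. Kif20a, Kif23 and Ect2, which act in cytokinesis, had none assigned in any library. Tpx2, which activates Aurka on the spindle, had no neonatal peak and 300, 616 and 692 bp in the adult libraries (mean 536 ± 208, SD, n = 3; exact permutation p = 0.1). Nusap1, a spindle protein, had 1 peak of 171 bp, in adult replicate 1. Of the chromosome structure genes, Top2a covered 0, 173 and 0 bp in neonatal and 231, 0 and 295 bp in adult libraries. Mki67, the widely used marker of cycling cells, covered 0, 148 and 0 bp in neonatal and 160, 0 and 0 bp in adult libraries, so its ages overlapped, with means of 49.3 ± 85.4 and 53.3 ± 92.4 (SD, n = 3 each).

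In all, 8 of the 50 genes had no promoter peak in any library (Mcm10, Rrm2, Ccnb2, Plk1, Aurkb, Kif20a, Kif23 and Ect2), beside 37.8% of coding genes. A promoter peak in all 3 adult and in no neonatal library was listed for 9 genes (Pcna, Prim1, Rrm1, E2f1, Aurka, Bub1b, Cdca8, Cenpe and Tpx2), 18% of the 50, beside 4.73% of coding genes and 12.1% of genes with a promoter peak. Without neonatal replicate 2 this count was 25, beside 22.1% of coding genes, and with lists of equal length it was 1 (Aurka), beside 1.59%. Aurka enters these counts by assignment, since the peak of neonatal replicate 2 at its start, 617 bp by position, was assigned to Cstf1. No member had a promoter peak in all 6 libraries, as 17.5% of coding genes had.

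Assignment to neighbours touched some of these values. When any peak within 3000 bp of any annotated start of the gene was counted whatever gene it was assigned to, 5, 27 and 5 of the genes in neonatal and 41, 34 and 38 in adult libraries had a peak, with Kif20a and Aurkb not measured. The genes with every adult above every neonatal library were then 27 (17 for replication and 10 for mitosis), beside 46.9% of coding genes. Gins1 and Foxm1 then had a peak in all 6 libraries, beside 21.1% of coding genes. For Foxm1 these included peaks assigned to Rhno1. For Gins1 they included peaks assigned to Abhd12, which lie by an alternative start of Gins1, and within 1000 bp of its main start neonatal replicates 1 and 3 had no covered base. Ect2 then had a peak in each adult library, assigned to 1700125G22Rik, and Plk1 had 1 in adult replicate 1, assigned to Gm15489.

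The share of genes with a promoter peak was higher for replication than for mitosis genes in every library, although in neonatal replicate 1 each class had 1 gene with a peak. The neonatal libraries listed 1, 15 and 2 of 24 replication genes (4.17%, 62.5% and 8.33%) and 1, 10 and 1 of 26 mitosis genes (3.85%, 38.5% and 3.85%). Each adult library listed 21 replication genes (87.5%), and 18, 11 and 15 mitosis genes (69.2%, 42.3% and 57.7%). The difference, replication minus mitosis, was 0.321, 24 and 4.49 percentage points in the neonatal libraries and 18.3, 45.2 and 29.8 in the adult ones. Both classes are read from the same list, so its length is shared. The adult libraries differed in the mitosis genes and not in the number of replication genes, and neonatal replicate 2 lay within the adult range of differences.

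The genes with every adult above every neonatal library were 16 of 24 for replication (66.7%) and 8 of 26 for mitosis (30.8%), on either side of the 41.9% of coding genes. The median covered length per gene was 56.2 bp (mean of the neonatal libraries) and 561 bp (mean of the adult libraries) for replication genes, 0 and 166 bp for mitosis genes, and 64.7 and 371 bp over coding genes. With lists of equal length the direction between the classes turned in the adult libraries: 1.33 ± 0.577 replication and 3.67 ± 1.53 mitosis genes (SD, n = 3 each) had a peak, a difference of -8.55 percentage points. The mitosis genes behind it were Aurka and Ttk in every adult library, Kif11 and Foxm1 in adult replicates 1 and 3, and Cenpa in adult replicate 3. So fewer mitosis than replication genes had a peak in the full adult lists, and more of them did among the strongest peaks. The turn rests on few genes, 4, 2 and 5 for mitosis against 2, 1 and 1 for replication. Among them Aurka, Foxm1, Mcm7 and Rfc4 start beside genes to which peaks at the same place were assigned in other libraries. The part of assignment in the turn was not tested.

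The side of the start on which the peaks lay also separated the classes, a measure added after the data had been seen. Of the bases covered within 1000 bp of the start, 81.7%, 88.2% and 81.7% lay upstream of it for the mitosis genes in adult replicates 1, 2 and 3, against 54.3%, 54.1% and 52.8% for the replication genes and 41.8%, 42.3% and 44.4% for coding genes. Neonatal replicate 2 gave 91.8% for mitosis, 52.1% for replication and 35.6% for coding genes, and the other neonatal libraries had too few covered members (4 each) to compare. More covered bases upstream than downstream were found for 17 of 19, 13 of 13 and 16 of 16 covered mitosis genes in the adult libraries and for 12 of 21, 11 of 21 and 12 of 22 replication genes. Kif11, the bipolar spindle motor, had 808, 761 and 653 bp upstream and 0 bp downstream in the adult libraries, and 713 and 0 bp in neonatal replicate 2. Ttk and Birc5 had no downstream base in any library. Cdk1 and Ube2c were the mitosis genes with more bases downstream, each in adult replicate 1 and Cdk1 also in neonatal replicate 2.

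Covered bases of the replication genes lay on both sides in sum, and the genes differed. E2f1, Cdc6 and the start of E2f2 used here had no downstream base in any adult library, and Mcm6 had no upstream base in adult replicates 1 and 2. Rrm1 had 542, 426 and 562 bp upstream and 548, 614 and 391 bp downstream in the adult libraries, and Prim1 had 41, 194 and 84 bp upstream and 260, 515 and 557 bp downstream. At positions 100 bp apart, the share of mitosis genes covered was highest 350 bp upstream, at 60%, 52% and 64% in adult replicates 1, 2 and 3, and that of replication genes 250 bp downstream, at 70.8%, 66.7% and 70.8%. Coding genes were highest 150 bp downstream, at 52.0%, 50.0% and 52.3%. Another gene that starts on the opposite strand within 1000 bp upstream can have peaks of its own there. With the starts used here, one was found for 2 replication genes (Mcm7 and Gins2), 2 mitosis genes (Aurka and Cdca8) and 11.4% of coding genes. This search was incomplete. Peaks beside the starts of Cdk2, Rfc4, Pcna, Ect2 and Foxm1 were assigned to Pmel, 6330408M09Rik, AV099323, 1700125G22Rik and Rhno1, which it did not count. It also left out Prkdc, assigned peaks beside the start of Mcm4, and Gm20587, assigned a peak beside that of Mcm3 in adult replicate 2. Without the genes found, the upstream share in the adult libraries was 85.7%, 90.7% and 82.2% for mitosis genes. It was 55.7%, 55.4% and 52.4% for replication and 40.1%, 40.7% and 43.2% for coding genes. These shares can still hold peaks of neighbours.

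**Figure D3:**
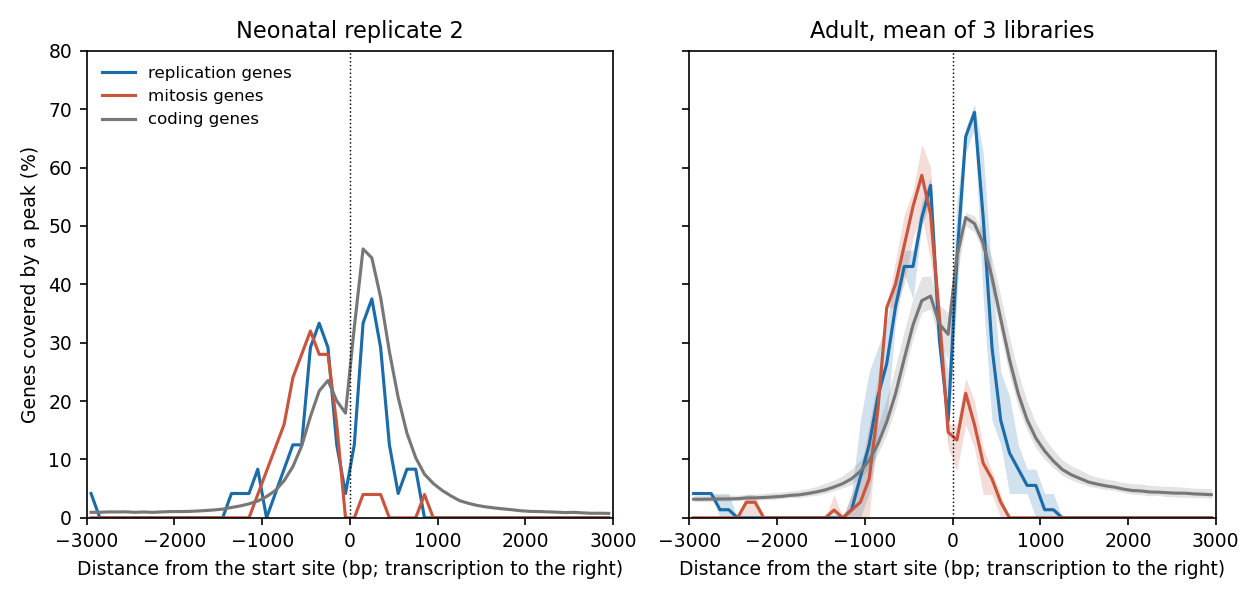
The lines give the percent of genes covered by a peak at positions 100 bp apart from 3000 bp before to 3000 bp after the start, for replication, mitosis and coding genes, in neonatal replicate 2 (left) and as the mean of the 3 adult libraries with their range as a band (right). The mitosis line peaks 350 bp upstream in the adult libraries and falls to 24% or less at 150 bp downstream, where the replication line reaches 62.5% to 66.7%.

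The authors' deposited table of differential sites gave the same direction for every member it listed. It holds 43888 sites with an adjusted p-value under 0.05, of which 43634 are higher in adult cells (79.6% of the 54838 sites that its p-values imply were tested) and 254 are higher in neonatal ones (0.463%). Of the 50 genes, 26 (52%) had a promoter site in the authors' deposited table, 13 for replication and 13 for mitosis. All 26 were higher in adult cells, as were 11932 of all 12058 genes with a promoter site, so the direction is not particular to the members. Of coding genes, 44.5% had a promoter site higher in adult and 0.458% had one higher in neonatal libraries in the authors' deposited table. The median log2 fold change of the members in the authors' deposited table was 1.78 (1.77 for replication and 1.78 for mitosis), and 1.77 over all 12058 genes with a promoter site, so the members' values sat at the middle of all genes.

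Among the mitosis genes the largest log2 fold changes in the authors' deposited table were those of Cdca8 (5.09, adjusted p = 4.44e-05), Cenpa (4.22, adjusted p = 8.23e-07) and Tpx2 (2.79, adjusted p = 5.58e-06). The smallest log2 fold changes of mitosis genes in the authors' deposited table were those of Ttk (1.21, adjusted p = 0.0136), Kif11 (1.23, adjusted p = 0.0132) and Birc5 (1.25, adjusted p = 0.00327). Among the replication genes the authors' deposited table had Mcm5 (3.80, adjusted p = 0.000182), Prim1 (3.30, adjusted p = 3.54e-07) and Pcna (2.43, adjusted p = 0.00166) at the top. Cdt1 (1.13, adjusted p = 0.0117), Rfc4 (1.20, adjusted p = 0.00547) and E2f2 (1.30, adjusted p = 0.0101) were the lowest replication genes in the authors' deposited table. The order differed from that of covered length: Cdca8 had the largest fold change with peaks of 169 to 174 bp, and Rfc4, with 1053 bp covered in the adult mean, had one of the smallest. Neonatal peaks beside the Rfc4 start were assigned to its neighbour and are not in its covered length. Adult peaks beside the Cdca8 start were likewise assigned to a neighbour, and by position Cdca8 covered 638, 451 and 697 bp in the adult libraries. Mki67 and Top2a had no site in the authors' deposited table.

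**Figure D4:**
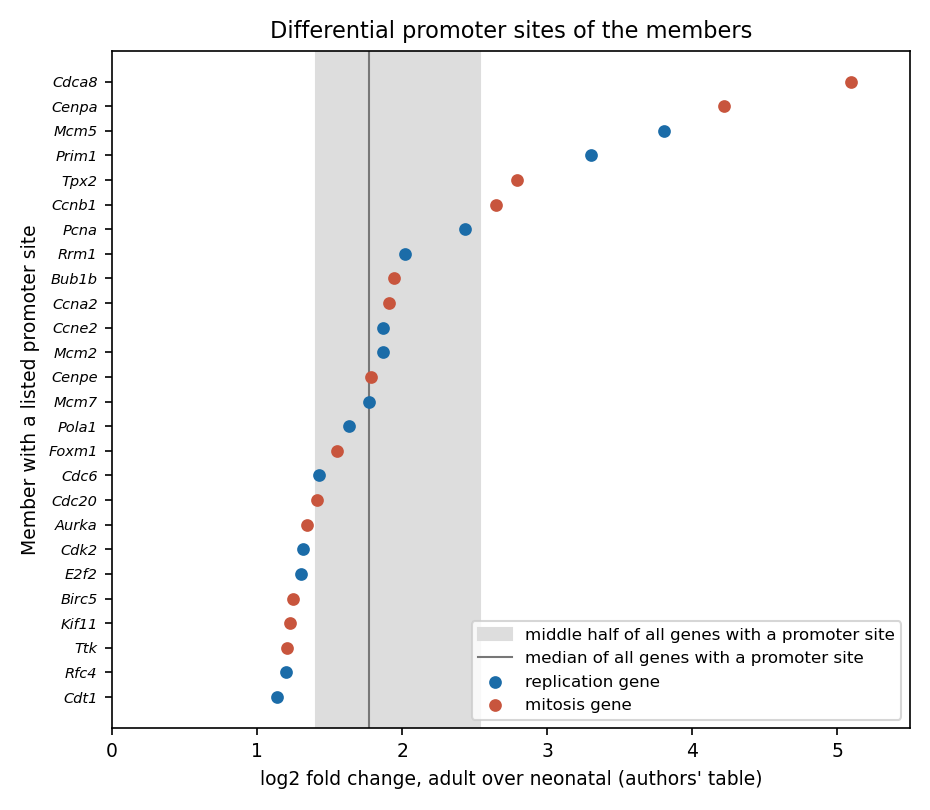
Each point is the log2 fold change, adult over neonatal, of a member's promoter site in the authors' deposited table, by class, and the grey band holds the middle of the values (lower to upper quartile, 1.41 to 2.54) of all 12058 genes with a promoter site, with a line at their median. All 26 points lie above 0, from 1.13 (Cdt1) to 5.09 (Cdca8), around the median of 1.77.

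Other genes of the same pathways were counted in the same way. The length covered by promoter peaks was higher in every adult than in every neonatal library for 23 of 36 other replication genes. The same held for 24 of 45 other mitosis genes and 10 of 16 transcription regulators of the cell cycle, against the 41.9% of coding genes. The reverse held for none of them. A promoter peak was listed for 5, 21 and 6 of the other replication genes in neonatal and 31, 29 and 30 in adult libraries, and for 2, 19 and 1 of the other mitosis genes in neonatal and 29, 29 and 30 in adult libraries. The regulators were less empty in the neonatal libraries, at 5, 12 and 8 of 16, and 14 of 16 in each adult library. Rb1, the retinoblastoma protein that restrains E2F, covered 741, 1081 and 214 bp in neonatal and 2116, 3226 and 2792 bp in adult libraries. Pola2, the partner subunit of Pola1, had no neonatal peak and 12958, 14502 and 15129 bp in the adult libraries, the largest values of these lists. These values sum whole peaks classed as promoter, which can reach beyond 3000 bp from a start, and are not given by position. Racgap1, a cytokinesis gene, had no neonatal peak and 1128, 1293 and 1806 bp in the adult libraries.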

How the data were processed

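H4K8ac ChIP-seq was measured in 3 neonatal and 3 adult libraries of sorted OPCs. Per the submitters' processing notes, which give no order, the authors used Trim Galore, Bowtie2 2.4.5, SAMtools, deepTools, MACS2, DiffBind and ChIPseeker with GRCm38. Peaks were called per library. Per the file headers, each deposited peak has a score, a fold enrichment as a linear ratio, a −log10 p-value, a −log10 q-value and an assigned gene. The largest q-value of a list was between 0.0427 and 0.0489. The authors' deposited table of differential sites gives log2 fold changes, p-values and adjusted p-values, without direction or values per library. Its positive sites overlapped adult peaks in 85.0% to 96.7% of cases and neonatal peaks in 10.3% to 27.8%, so positive was read as higher in adult. Its normalization is not given in the sources used here.

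Covered length is the union of the promoter peaks of a gene, in bp (Python 3.11.15, numpy 2.4.6, pandas 2.3.3, scipy 1.17.1). Each promoter peak counts in full, also where it reaches beyond 3000 bp from the start. Starts of the lists count from 0, and printed coordinates count from 1. A gene was counted as higher in adult when all 3 adult libraries exceeded all 3 neonatal ones, and single genes had exact two-sided permutation tests. No test was made over the members. A planned ratio of medians was replaced by a difference, because neonatal medians were 0. Shares use the 21631 coding genes of RefSeq on chromosomes 1 to 19 and X, of which 14232 were found in the lists. A gene missing under its symbol counts as without a peak. The code was tested on simulated data.

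Genes named with values are, in each of the 9 role lists, those with the largest and smallest difference between ages, those with promoter peaks in all libraries of 1 age and in none of the other, those with none at all, those with a higher neonatal mean, the 3 largest and 3 smallest fold changes per class, and up to 3 examples of each other list. Further genes (Mcm5, Mcm6, Cdt1, Cdc6, Gins2, Tyms, Cdk1, Ccnb1, Bub1, Nusap1, Foxm1, Birc5, Kif11 and those named for a neighbour or a side) were chosen after their values were seen. Members and lists were chosen with earlier results of these data known. Alternatives were lists of equal length (7353 peaks), a q-value under 0.005, peaks within 1000 bp, peaks of any class, assignment by position, leaving out each library and the replicate number as a block. Replicate numbers did not pair the libraries: deviations of same-numbered libraries from their age means, on log2(bp + 100), correlated at -0.02, 0.01 and 0.05.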

Additional observations from a re-analysis of the deposited data

How the results depend on the processing

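Of 164 alternative values, 147 kept their direction and differed from the reported value by less than 1 SD or, for counts, by no more than 1.5 times, 15 moved further and 2 turned direction. The SD was taken between libraries, except for the median log2 fold changes, where it was taken between member genes. The lists of equal length (7353 strongest peaks) moved most. With them, 3 of the 50 genes had every adult above every neonatal library (1 replication, 2 mitosis), the mean number of genes with a promoter peak differed by 1.67 (all), -0.667 (replication, turned) and 2.33 (mitosis), each median covered length differed by 0 bp, and the adult difference between the classes turned to -8.55 percentage points. Counting peaks by position gave a median difference of 529 bp over all members. An adjusted p-value under 0.005 in the authors' deposited table left 12 members with an adult site, 5 for replication and 7 for mitosis. The upstream share in adult cells, counted in genes with more covered bases upstream, was 54.7% for replication and 96.5% for mitosis, and counted in peak centres 77.0% for mitosis.

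Leaving out 1 library at a time gave 24 to 30 genes with every adult above every neonatal library (16 to 19 replication, 8 to 12 mitosis), and 0 to 0 with the reverse. The number of mitosis genes was 12 without adult replicate 2 and 11 without neonatal replicate 2. Genes with a peak differed between ages by 21.7 to 33.2 (12.5 to 19.5 and 9 to 13.7), and median covered length by 298 to 436 bp (455 to 561 and 123 to 249.5). Replication minus mitosis was 2.4 to 14.3 points in neonatal cells, lowest without neonatal replicate 2, and 24 to 37.5 in adult cells. The upstream share was 53.5% to 54.2% for replication and 81.7% to 84.9% for mitosis. With the replicate block, comparing libraries of the same number only, the count was 26 (17 replication and 9 mitosis) and the reverse 0. The block changed no other direction, and since the numbers did not pair the libraries it is given only here. Depth is unknown, so a missing peak is a signal under the authors' threshold and not an absence of the mark.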
